A study of Mus musculus with 12 samples.

Results

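Cells make cholesterol and fatty acids from acetyl-CoA, and the 34 genes described here encode that machinery in mouse CD8+ T cells. They were chosen by name: 7 enzymes from acetyl-CoA to farnesyl diphosphate (the mevalonate branch), 9 enzymes from squalene to cholesterol, 5 regulators of the SREBP transcription factors, 4 enzymes that supply and join the carbon of fatty acids, 6 desaturases and elongases, and 3 sterol transporters. All 34 are among the 55536 annotated genes of the count table, and all 34 passed the filter on low counts that left 18817 genes for testing.

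The study asked how costimulation changes the RNA of antigen-specific CD8+ T cells in vivo, and the 12 libraries fall into 3 groups. All cells came from OT-1 Tg C57BL/6J mice, whose T cells carry a transgenic receptor for an ovalbumin peptide. For the Ag group (5 libraries) and the Ag+Costim group (5 libraries), OT-I cells were moved into C57BL6/J recipients that received antigen with control IgG or antigen with agonist antibodies against OX40 (CD134) and 41BB (CD137). The labels give collection after 4 days, where the study's methods give a shorter time, and CD8+ T cells were sorted from spleen and lymph nodes. The Naive group (2 libraries) is OT-I cells purified from mice of the transgenic strain with no transfer. Transfer, antigen and the host therefore all differ between Ag and Naive and cannot be told apart, whereas Ag and Ag+Costim differ in the antibodies. The labels number the libraries within a group without naming a mouse, and the study describes them as individual biological replicates.

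In the sterol branch, acetyl-CoA is condensed into mevalonate, mevalonate is turned into isoprenoids, and these are joined to squalene and closed into sterol rings. In the fatty acid branch, cytosolic acetyl-CoA is carboxylated and extended into palmitate, which is then lengthened and desaturated. SREBP proteins switch on both branches: they are held in the endoplasmic reticulum by SCAP and INSIG when sterols are plentiful, and are carried to the Golgi and cleaved when sterols are low. Dividing lymphocytes are known to draw on both branches for new membrane.

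Depth was 42342577 and 43491402 counts in the Naive libraries, 24006053 to 45980125 in Ag, where Ag 4 was the shallowest, and 40028682 to 49294934 in Ag+Costim. The summed level of 8 proliferation markers was 260 to 273 CPM (counts scaled to the size of the library) in Naive, between 754 and 1388 in Ag and between 3419 and 4759 in Ag+Costim. All 8 were called higher in Ag than in Naive (24.2% of all tested genes were) and in Ag+Costim than in Ag (26.6%). Of 7 T cell markers, 6 were called lower in Ag+Costim than in Ag (26.5% of all tested genes were). Their sums were 4320 to 5964 CPM in Ag+Costim against 7620 to 11447 in Ag, and 9596 to 10331 in Naive, over all 7. Cd8a, which defines the sorted cells, was at 776 to 861, 935 to 1302 and 504 to 609 CPM in Naive, Ag and Ag+Costim. Markers of other cells were low for B cells (5 genes, with sums of 27.2 to 29.7, 108 to 155 and 22.5 to 57.7 CPM in Naive, Ag and Ag+Costim) and myeloid cells (7 genes, 24.3 to 49.8, 42.8 to 148 and 79.3 to 135 CPM). Erythroid markers (5 genes) summed to 150 to 2068 CPM in Naive, 625 to 6373 in Ag, with the most in Ag 4, and 14.5 to 222 in Ag+Costim. All 5 were called lower in Ag+Costim than in Ag (26.5% of all tested genes). Cd4 was at 0 to 2.44 CPM, and no marker of any list was at 0 in every library. The part of division or of other cells in the results below was not tested, and in such bulk samples fewer cells of a type and less RNA per cell cannot be told apart.

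Most of the lipid synthesis genes were higher with costimulation. By edgeR's quasi-likelihood test with Benjamini-Hochberg adjustment, where a gene is called at an adjusted p below 0.05, 23 of the 34 were higher in Ag+Costim than in Ag (26.6% of all tested genes were), 3 were lower (26.5% of all tested genes) and 8 were not called. The 23 include Fads2, which passed the filter on low counts only through Ag+Costim. In 20 of the 34 every Ag+Costim library lay above every Ag library (21.3% of all tested genes), and in 2, Ebp and Insig2, every library lay below (18.5%). The median log2 fold change was 0.96, against -0.05 over all genes tested. Antigen without the antibodies gave another picture: 10 members were higher in Ag than in Naive (24.2% of all tested genes), 13 were lower (22.5%) and 11 were not called, with a median of -0.04 against 0.02 over all genes. Compared directly with Naive, 22 members were higher in Ag+Costim (26.9% of all tested genes), 5 were lower (25.4%) and 7 were not called, with a median of 0.89. The summed level of the 34 was 1566 and 1669 CPM in Naive, between 1207 and 1379 in Ag and between 2423 and 2876 in Ag+Costim, and the ranges of the groups do not overlap. Comparisons that share a group share its libraries, so their values are set side by side below and are not counted together.

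**Figure D1:**
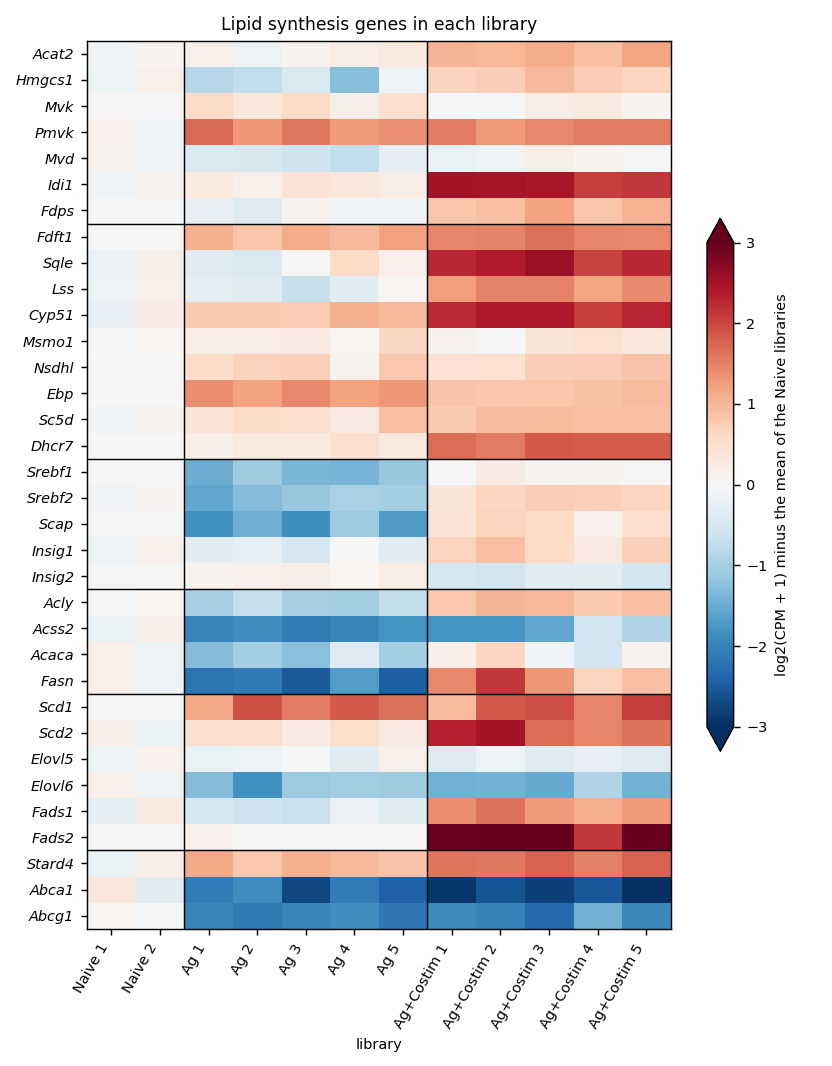
Level of each of the 34 genes (rows, in the order of their roles, with lines between roles) in each of the 12 libraries (columns), as log2(CPM + 1) minus the mean of the 2 Naive libraries, on a colour scale cut at 3 in both directions. Srebf1, Srebf2, Scap and the 4 enzymes of fatty acid supply are blue in the Ag libraries, and most rows are red in the Ag+Costim libraries, while Insig2, Acss2, Elovl6, Abca1 and Abcg1 are blue there.

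**Figure D2:**
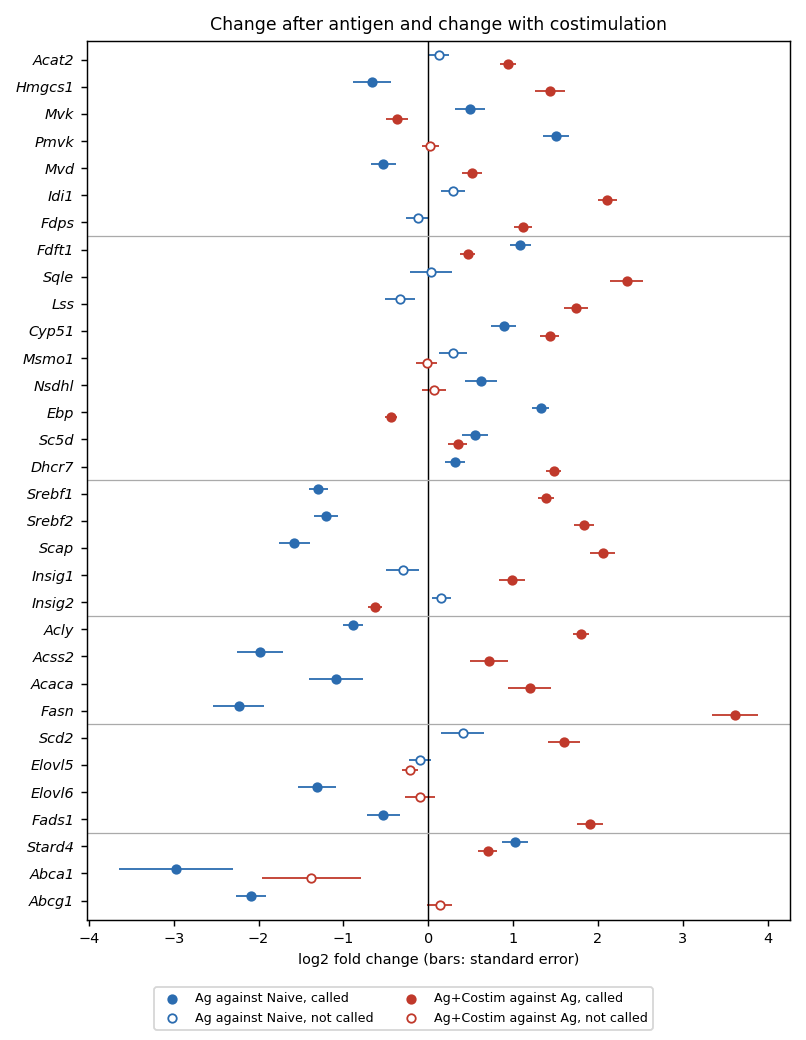
Log2 fold change with its standard error for 32 members, for Ag against Naive (blue) and Ag+Costim against Ag (red), with filled points where the edgeR test called the difference. Scd1 and Fads2 are left out because they have no counts in Naive. Both comparisons use the same 5 Ag libraries, and Fasn has the largest red value shown, 3.62.

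Of the SREBP regulators, Srebf1, Srebf2 and Scap were lower in Ag than in Naive and higher in Ag+Costim than in Ag. Neither Insig gene was called in Ag against Naive, and in Ag+Costim against Ag Insig1 was higher and Insig2 lower. Srebf1 (chr11:60199089-60222581 in mm10) encodes the SREBP form best known for fatty acid genes, and it measured 140.1 and 141 CPM in Naive, 49.8, 66.4, 54.2, 52.8 and 63.3 in Ag 1 to Ag 5 and 138, 166, 151, 149 and 144 in Ag+Costim 1 to 5. Every Ag library was below both of the other groups, and the Ag+Costim range held the Naive values. The log2 fold change was -1.30 ± 0.11 (SE, adjusted p = 1.47e-06) for Ag against Naive, 1.38 ± 0.09 (SE, adjusted p = 7.87e-08) for Ag+Costim against Ag and 0.09 ± 0.12 (SE, adjusted p = 0.556) for Ag+Costim against Naive.

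Srebf2 (chr15:82147181-82205379) encodes the form best known for cholesterol genes. It stood at 107 and 119 CPM in Naive, 37.4, 44.9, 50.6, 56.9 and 55.3 in Ag and 145, 176, 188, 187 and 177 in Ag+Costim. The 3 groups did not overlap, with Ag lowest and Ag+Costim highest. Srebf2 was 2.31-fold lower in Ag than in Naive (adjusted p = 1.92e-05) and 3.56-fold higher in Ag+Costim than in Ag (adjusted p = 6.23e-08), and its excess in Ag+Costim over Naive, 0.63 ± 0.16 (SE, adjusted p = 0.00448), was not called without Naive 1 (0.56).

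Scap (chr9:110333288-110384950), the escort that carries SREBP to the Golgi, moved furthest of the 5. Its level was 97.1 and 99.8 CPM in Naive, 27.2, 34.9, 27, 46 and 29.7 in Ag and 128, 157, 149.8, 108 and 139 in Ag+Costim, and every Ag library was below every other library. For Scap the log2 fold change was -1.58 ± 0.18 (SE, adjusted p = 1.41e-05) for Ag against Naive and 2.05 ± 0.15 (SE, adjusted p = 1.76e-07) for Ag+Costim against Ag. Ag+Costim against Naive gave 0.47 ± 0.20 (SE, adjusted p = 0.0605), which was not called, although DESeq2, the length correction and a fit of these groups alone called it.

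The Insig genes, whose proteins keep the SCAP and SREBP complex in the endoplasmic reticulum, went apart. Insig1, itself a known SREBP target, rose from 6.99 to 10.4 CPM in Ag to 12.7 to 20.2 in Ag+Costim (log2 fold change 0.99 ± 0.15, SE, adjusted p = 7.97e-05), with no overlap of the groups. Insig2 measured 33.9 and 35.3 CPM in Naive, 37.3, 38.9, 39.1, 36.2 and 40.6 in Ag and 23.8, 23.1, 26.7, 27.6 and 23.1 in Ag+Costim. Every Ag+Costim library was below every library of the other groups, and the log2 fold change against Ag was -0.63 ± 0.08 (SE, adjusted p = 2.62e-05).

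Other parts of the same control system were read from a list of 13 further sterol genes. In Ag+Costim against Ag 6 of the 13 were higher (26.6% of all tested genes), 3 lower (26.5%) and 4 not called. Their median log2 fold change was 0.55. Called genes of this list included Tmem97, a sterol-responsive membrane protein (log2 fold change 2.0, adjusted p = 3.38e-06), and Hsd17b7, an enzyme of sterol demethylation (log2 fold change 1.46, adjusted p = 4.82e-07). In Ag against Naive 3 of the 13 were higher (24.2% of all tested genes) and 7 lower (22.5%). In Ag+Costim against Naive 6 were higher (26.9% of all tested genes) and 3 lower (25.4%).

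**Figure D3:**
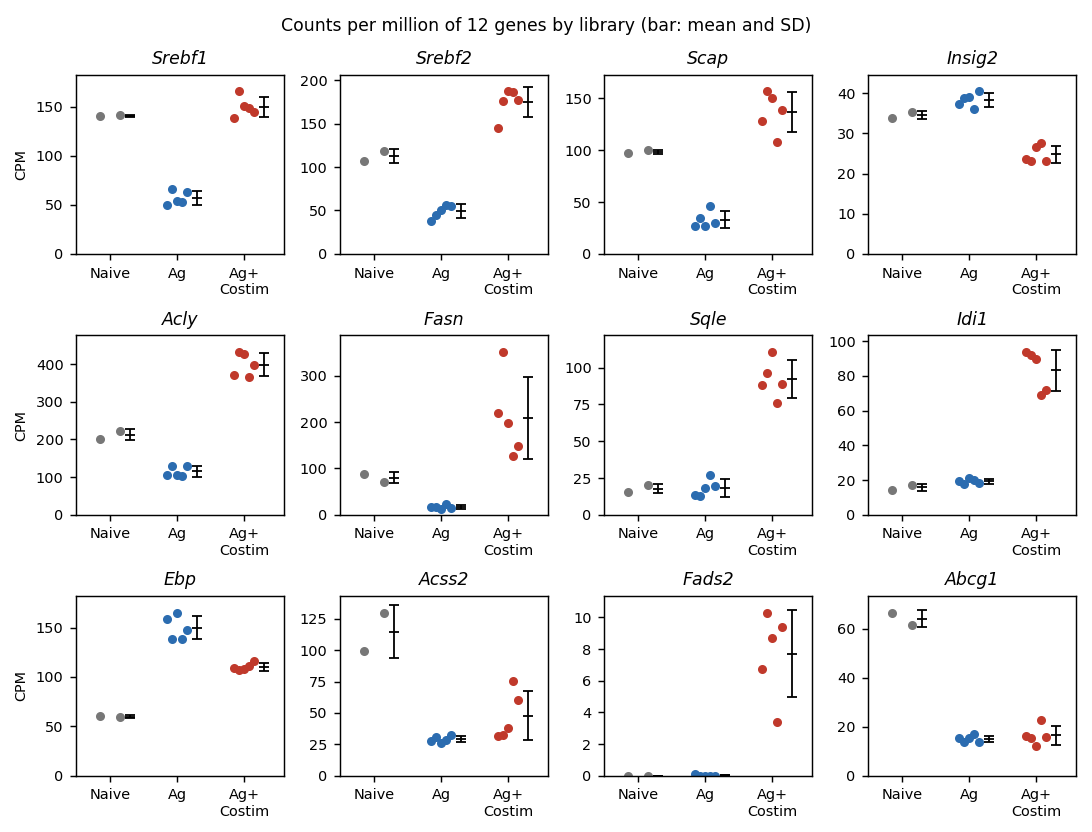
CPM of 12 members in each library (points; grey Naive, blue Ag, red Ag+Costim), with the group mean and SD as a black bar and each vertical axis starting at 0. The Ag points of Srebf1, Srebf2, Scap, Acly and Fasn lie below both other groups, those of Sqle and Idi1 lie near Naive, Insig2 is lowest in Ag+Costim, Ebp is highest in Ag, and Abcg1 is low in both transferred groups.

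The 4 genes of fatty acid supply were all called lower in Ag than in Naive (22.5% of all tested genes). All 4 were called higher in Ag+Costim than in Ag (26.6%), and the median log2 fold changes were -1.54 and 1.5. Fasn (chr11:120805846-120824547, minus strand), the synthase that builds palmitate, measured 89.1 and 71.6 CPM in Naive, 16.6, 17.6, 13.2, 24.2 and 13.8 in Ag and 219, 352, 198, 127 and 149.5 in Ag+Costim. Its 3 groups did not overlap, and Ag+Costim 2 was highest. Fasn was 12.3-fold higher in Ag+Costim than in Ag (log2 value 3.62 ± 0.27, SE, adjusted p = 1.91e-07) and had a log2 value of -2.24 ± 0.31 (SE, adjusted p = 5.49e-05) in Ag against Naive. The second value was -1.498 when the trend of counts with transcript length was removed from each library. In Ag+Costim against Naive the log2 fold change of Fasn was 1.38 ± 0.35 (SE, adjusted p = 0.00463), and without Naive 2 it was 1.23 and not called (adjusted p = 0.059).

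Acly (chr11:100476353-100528000, minus strand) releases cytosolic acetyl-CoA from citrate. It was found at 203 and 223 CPM in Naive, 106, 131, 105, 104 and 129 in Ag and 370.1, 433, 427, 365 and 398 in Ag+Costim, again with 3 groups that did not overlap. The log2 fold change was -0.89 ± 0.12 (SE, adjusted p = 4.07e-05) for Ag against Naive and 1.79 ± 0.09 (SE, adjusted p = 1.52e-08) for Ag+Costim against Ag. Per length, Acly was the highest of the 34 in Ag+Costim, at 86.8 ± 6.29 FPKM (SD, n = 5), against 26.1 ± 3.01 FPKM (SD, n = 5) in Ag and 53.7 ± 3.65 FPKM (SD, n = 2) in Naive.

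Acss2, which makes acetyl-CoA from acetate instead, did not return to its Naive level. It measured 99.6 and 129.9 CPM in Naive, 27.9, 30.7, 25.9, 28.5 and 32.1 in Ag and 31.9, 32, 38.1, 75.8 and 60.3 in Ag+Costim. Ag+Costim 4 and 5 stood above the other Ag+Costim libraries, and Ag+Costim 1 and 2 lay within the Ag range. The log2 fold change was -1.98 ± 0.27 (SE, adjusted p = 5.59e-05) for Ag against Naive, 0.71 ± 0.22 (SE, adjusted p = 0.0146) for Ag+Costim against Ag and -1.27 ± 0.27 (SE, adjusted p = 0.00163) for Ag+Costim against Naive. The second was not called under upper-quartile scaling (0.52) or under the replicate block with length correction (0.45). The annotated span of Acss2 overlaps 5 other genes, the highest of them with a mean of 29.4 CPM. The part of their reads in these values was not tested.

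Acaca, the carboxylase that makes malonyl-CoA for the synthase, was low throughout: 12.9 and 10.4 CPM in Naive, 4.08, 5.24, 4.29, 8.7 and 5.2 in Ag and 13.4, 18.6, 10.9, 7.45 and 12.4 in Ag+Costim. Ag 4, at 8.70, lay above Ag+Costim 4, at 7.45, so these groups overlap. The log2 fold change was 1.20 ± 0.25 (SE, adjusted p = 0.00124) for Ag+Costim against Ag. For Ag against Naive it was -1.09 ± 0.32 (SE, adjusted p = 0.0121), which was not called with the length correction (-0.39) or without Naive 1 (-0.92).

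In a list of 15 further fatty acid genes, 14 were tested (Me1 was too low). In Ag+Costim against Ag 7 of the 14 were higher (26.6% of all tested genes), 2 lower (26.5%) and 5 not called. Their median log2 fold change was 0.42. The largest called changes were in Acacb, the mitochondrial carboxylase (1.78, adjusted p = 0.0439, at 0 to 0.752 CPM in Ag), Gpam, which starts glycerolipid synthesis (1.45, adjusted p = 0.000603), and Hacd3, a dehydratase of chain elongation (1.02, adjusted p = 4.38e-07). Of 8 genes of fatty acid oxidation, 2 were higher and 2 lower, near the 26.6% and 26.5% of all tested genes, and 4 were not called, with a median of -0.09. Cpt1a, which admits fatty acids to mitochondria, had 1.00 (adjusted p = 0.000232), Hadha, of the trifunctional protein, had 0.93 (adjusted p = 1.13e-07), and Acadm, the medium-chain dehydrogenase, had -0.67 (adjusted p = 7.43e-05). In Ag against Naive, 4 of the fatty acid genes were higher and 4 lower, and 2 of the oxidation genes were higher and 2 lower, near the 24.2% and 22.5% of all tested genes. In Ag+Costim against Naive the numbers were 5 higher and 2 lower, and 3 higher and 1 lower. Of all tested genes, 26.9% were higher and 25.4% lower in that comparison.

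Among the 7 mevalonate enzymes, 5 were higher in Ag+Costim than in Ag (26.6% of all tested genes) and Mvk was lower (26.5%). Pmvk was not called, and the median log2 fold change was 0.94. Hmgcs1 (chr13:119690379-119708260), the synthase that makes the precursor of mevalonate, measured 47 and 59.2 CPM in Naive, 28.7, 31, 38, 21.3 and 48.1 in Ag and 85.7, 88.2, 105, 90.1 and 83.3 in Ag+Costim. Every Ag+Costim library was above all others, and Ag 5 overlapped the Naive libraries. The log2 fold change was 1.43 ± 0.18 (SE, adjusted p = 1.33e-05) against Ag. The decrease in Ag against Naive, -0.67 ± 0.22 (SE, adjusted p = 0.0257), was not called without Naive 2 (-0.49), without Ag 1 (-0.62), with the length correction (-0.43) or in a fit of these groups alone. The increase over Naive, 0.77 ± 0.24 (SE, adjusted p = 0.0153), was not called without Naive 1 (0.61).

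Idi1 (chr13:8885501-8892451), the isomerase that prepares isoprene units for joining, had the largest change of this branch. Its values were 14.4 and 17 CPM in Naive, 19.4, 17.6, 21.2, 19.8 and 18.4 in Ag and 93.9, 91.9, 89.8, 69.1 and 71.7 in Ag+Costim. The Ag and Ag+Costim libraries did not overlap, and Idi1 was 4.32-fold higher with costimulation (adjusted p = 1.52e-08), while Ag against Naive, 0.29 ± 0.14 (SE, adjusted p = 0.114) on the log2 scale, was not called, although it was with the length correction (0.46). Fdps, the farnesyl diphosphate synthase, and Acat2, the cytosolic thiolase that starts the branch, were also highest in Ag+Costim, with log2 fold changes of 1.11 ± 0.11 (SE, adjusted p = 1.41e-06) and 0.94 ± 0.09 (SE, adjusted p = 2.07e-06) in Ag+Costim against Ag. Fdps was at 79.9 ± 8.36 FPKM in Ag+Costim (SD, n = 5), next to Acly in the order of levels per length, and at 38.5 ± 5.41 FPKM in Ag (SD, n = 5).

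Mvk and Pmvk, the kinases that act on mevalonate, were not called higher in Ag+Costim than in Ag in the main edgeR fit. Pmvk, the phosphomevalonate kinase, was at 13.3 to 16.1 CPM in Naive, 37 to 49.4 in Ag and 37.1 to 45.4 in Ag+Costim, with log2 fold changes of 1.51 ± 0.15 (SE, adjusted p = 4.4e-06) in Ag against Naive and 0.02 ± 0.11 (SE, adjusted p = 0.863) in Ag+Costim against Ag. The second was called higher in edgeR with the length correction (0.296, adjusted p = 0.0148) and with block and length correction (0.300, adjusted p = 0.0103). Mvk, the mevalonate kinase, measured 9.12 and 8.63 CPM in Naive, 13.7, 11.5, 14, 10.2 and 12.9 in Ag and 8.61, 8.62, 10.6, 11 and 9.45 in Ag+Costim. Its groups overlap between Ag and Ag+Costim (log2 fold change -0.37 ± 0.13, SE, adjusted p = 0.026), and the call was lost with the length correction (-0.16) or when Ag 1, Ag 3, Ag+Costim 1, 2 or 5 was left out. Against Naive, Mvk in Ag had 0.49 ± 0.17 (SE, adjusted p = 0.0319), a call lost when either Naive library was left out. Mvd, the decarboxylase that follows, had -0.53 ± 0.15 (SE, adjusted p = 0.0107) in Ag against Naive, not called without Naive 1 (-0.41), and 0.52 ± 0.12 (SE, adjusted p = 0.00211) in Ag+Costim against Ag.

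Of the 9 enzymes from squalene to cholesterol, 6 were higher in Ag+Costim than in Ag (26.6% of all tested genes) and Ebp was lower (26.5%). Msmo1 and Nsdhl were not called, and the median log2 fold change was 0.46. In Ag against Naive 6 of the 9 were higher (24.2% of all tested genes) and none was lower (22.5%). In Ag+Costim against Naive 8 were higher (26.9% of all tested genes), with a median of 1.40. Sqle (chr15:59315077-59331192), the epoxidase that is the first oxygen-using step of sterol synthesis, measured 15.7 and 20.0 CPM in Naive, 13.5, 12.7, 18.1, 27.2 and 19.6 in Ag and 88.3, 96.6, 111, 75.8 and 88.8 in Ag+Costim. The Naive values lay within the Ag range, and every Ag+Costim library was above both groups. Ag+Costim exceeded Ag 5.06-fold (log2 value 2.34 ± 0.19, SE, adjusted p = 4.18e-07), and Ag against Naive gave 0.03 ± 0.25 (SE, adjusted p = 0.942).

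Lss, which closes squalene epoxide into lanosterol, was likewise highest in Ag+Costim: 18.4 and 22.9 CPM in Naive, 16.5, 15.4, 12.3, 16.3 and 21.5 in Ag and 50.3, 59, 59.8, 47.8 and 56.1 in Ag+Costim. The Ag+Costim libraries stood apart from all others (log2 fold change 1.74 ± 0.14, SE, adjusted p = 3.29e-07). Dhcr7, the reductase of the last step, was at 18.6 and 19.3 CPM in Naive, 21.5, 23.5, 23.3, 26.7 and 23.3 in Ag and 62.8, 57.4, 69.9, 69.3 and 69.5 in Ag+Costim. It was 2.78-fold higher in Ag+Costim than in Ag (adjusted p = 3.39e-08), with groups that did not overlap, and its smaller step in Ag against Naive, 0.32 ± 0.12 (SE, adjusted p = 0.0386) on the log2 scale, was lost, among other settings, when either Naive library was left out.

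Cyp51 and Fdft1 rose at both steps. Cyp51, the lanosterol demethylase, was at 17.9 and 25.6 CPM in Naive, 37.6, 37.6, 37.1, 45.8 and 43.2 in Ag and 105, 117, 118, 93.3 and 109 in Ag+Costim, 3 groups that did not overlap (log2 fold changes 0.89 ± 0.15, SE, adjusted p = 0.000355 and 1.43 ± 0.11, SE, adjusted p = 2.49e-07). Fdft1, the squalene synthase, was at 18.9 to 20.1, 35.2 to 46.7 and 54.5 to 63.7 CPM (log2 fold changes 1.09 ± 0.13, SE, adjusted p = 1.37e-05 and 0.46 ± 0.09, SE, adjusted p = 0.000604). The kit marks no strand, and both overlap a gene on the other strand: Cyp51 overlaps Akap9, with a mean of 95.3 CPM, and Fdft1 overlaps Ctsb, with 520 CPM, so reads of the partner could not be told apart where the transcripts coincide.

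Ebp, the sterol isomerase, went the other way with costimulation. It measured 60.6 and 59 CPM in Naive, 159, 139, 165, 138 and 148 in Ag and 109, 107, 108, 111 and 116 in Ag+Costim, and the 3 groups did not overlap. Ebp had log2 fold changes of 1.33 ± 0.10 (SE, adjusted p = 4.71e-07) in Ag against Naive and -0.44 ± 0.07 (SE, adjusted p = 0.00014) in Ag+Costim against Ag, so that Ag+Costim remained 1.84-fold above Naive (adjusted p = 7.62e-06). Per length Ebp was the highest of the 34 in Ag, at 86.3 ± 4.37 FPKM (SD, n = 5).

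Nsdhl, a sterol dehydrogenase, and Sc5d, a sterol desaturase, were higher in Ag than in Naive (log2 fold changes 0.62 ± 0.19, SE, adjusted p = 0.0155 and 0.55 ± 0.15, SE, adjusted p = 0.00858), and both calls were lost without Naive 1. Between Ag and Ag+Costim, Nsdhl differed by 0.07 ± 0.14 (SE, adjusted p = 0.711) and Sc5d by 0.35 ± 0.11 (SE, adjusted p = 0.0176), and the value for Sc5d turned to -0.06 with the length correction and was not called under upper-quartile scaling (0.15). Msmo1, the methylsterol monooxygenase, was not called in any comparison, with 0.29 ± 0.16 in Ag against Naive and -0.02 ± 0.12 in Ag+Costim against Ag (log2, SE).

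Of the 6 desaturases and elongases, 3 were higher in Ag+Costim than in Ag (26.6% of all tested genes) and none was lower (26.5%). The 3 were Fads1, Fads2 and Scd2, all desaturases. Fads2 (chr19:10062765-10101746), which starts the desaturation of polyunsaturated fatty acids, had 0 counts in both Naive libraries, 4 counts in Ag 1 and 0 in the other Ag libraries, and 285, 465, 407, 145 and 363 counts in Ag+Costim 1 to 5. That is 3.37 to 10.3 CPM in Ag+Costim, and the mean, 7.72 CPM, was at least 124-fold higher than a floor of 3 counts per library in Naive. Fads2 passed the filter on low counts only through Ag+Costim, the group where it is high. Its edgeR call against Ag (adjusted p = 5.43e-07) therefore adds no support beyond these counts. A count of 0 allows up to 3 counts, which is 0.0617 to 0.119 CPM in these libraries, and this covers counting error only. Fads1, the partner desaturase on the same chromosome, was at 11 and 16.9 CPM in Naive, 9.24, 8.5, 8.25, 11.9 and 10.4 in Ag and 37.4, 44.4, 34.5, 30.2 and 34.7 in Ag+Costim. Here Ag+Costim did not overlap Ag (log2 fold change 1.91 ± 0.15, SE, adjusted p = 3.24e-07), and the lower level in Ag than in Naive (log2 -0.53 ± 0.19, SE, adjusted p = 0.0368) was not called without Naive 2 (-0.19) or, among others, with the length correction (-0.28).

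Scd1 and Scd2 encode stearoyl-CoA desaturases, which make monounsaturated fatty acids, and differed in pattern. Scd2 was at 29.97 and 22.5 CPM in Naive, 36.4, 36.8, 31.2, 38 and 31.4 in Ag and 134, 150.4, 85.5, 73.7 and 82 in Ag+Costim, with Ag+Costim 1 and 2 highest and no overlap with Ag (log2 fold change 1.60 ± 0.19, SE, adjusted p = 9.88e-06). Scd1 had 0 counts in both Naive libraries, 56, 122, 84, 65 and 89 counts in Ag and 39, 120, 132, 76 and 124 counts in Ag+Costim. Against the floor in Naive, the mean of Ag was at least 34.1-fold higher and the mean of Ag+Costim at least 36.6-fold higher. The libraries of Ag+Costim and Ag overlapped (0.10 ± 0.34, log2, SE). In CPM, Scd1 stayed at 0.925 to 3.22 in Ag+Costim.

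The elongases were not called higher in either transferred group. Elovl6, which lengthens palmitate, was at 34.8 and 28.1 CPM in Naive, 12, 8.17, 14.2, 14.7 and 14.4 in Ag and 10.8, 11, 10.2, 16.3 and 11.1 in Ag+Costim. Both transferred groups were below Naive (log2 -1.31 ± 0.22, SE, adjusted p = 0.000324 for Ag and -1.40 ± 0.22, SE, adjusted p = 0.000147 for Ag+Costim), and they differed from each other by -0.09 ± 0.18 (SE), which was called lower with the length correction (-0.48). Elovl5, which lengthens polyunsaturated fatty acids, was at 71.9 ± 8.79 FPKM in Naive (SD, n = 2), the highest of the 34 there, at 58.6 ± 5.88 FPKM in Ag and at 49.1 ± 3.63 FPKM in Ag+Costim (SD, n = 5 each). Its log2 fold change in counts, -0.22 ± 0.10 (SE, adjusted p = 0.0832) in Ag+Costim against Ag, was not called, although it was called under upper-quartile scaling (-0.41), with the length correction (-0.34), with the stricter filter on low counts (-0.26), on FPKM (-0.25) and without Ag 4 (-0.27).

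Of the 3 genes that move sterols, Stard4 was called higher in Ag+Costim than in Ag and the exporters were not called. Stard4, a soluble carrier of cholesterol within the cell, was at 9.78 to 13.2 CPM in Naive, 20.7 to 26.1 in Ag and 34.2 to 41 in Ag+Costim, 3 ranges that do not overlap (log2 fold changes 1.02 ± 0.15, SE, adjusted p = 0.000106 and 0.70 ± 0.11, SE, adjusted p = 0.000102). Its step from Ag to Ag+Costim was not called on FPKM (0.32) or under the replicate block with length correction (0.31). Abcg1, which exports cholesterol, measured 66.7 and 61.7 CPM in Naive, 15.4, 13.9, 15.4, 17 and 13.7 in Ag and 16.2, 15.3, 12.2, 22.9 and 16 in Ag+Costim. Both transferred groups were below Naive and overlapped each other, with -2.09 ± 0.18 (SE, adjusted p = 1.07e-06) for Ag against Naive and 0.13 ± 0.14 (SE, adjusted p = 0.465) for Ag+Costim against Ag. Abca1, the other exporter, was at 12.2 and 7.1 CPM in Naive, 1.4, 1.81, 0.559, 1.42 and 0.914 in Ag and 0.356, 0.709, 0.493, 0.768 and 0 in Ag+Costim. The Ag and Ag+Costim libraries overlapped, and their difference, -1.38 ± 0.58 (SE, adjusted p = 0.0624) on the log2 scale, was not called by edgeR and was called by DESeq2 (-1.40), under upper-quartile scaling (-1.58) and with the length correction (-1.79).

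Per length, the order of the 34 changed between groups. In Naive the highest were Elovl5, Acly and Fdps, at 71.9 ± 8.79, 53.7 ± 3.65 and 45.3 ± 1.19 FPKM (SD, n = 2). In Ag they were Ebp, Elovl5 and Fdps, at 86.3 ± 4.37, 58.6 ± 5.88 and 38.5 ± 5.41 FPKM (SD, n = 5), and in Ag+Costim they were Acly, Fdps and Ebp, the last at 60.9 ± 2.53 FPKM. Fasn stood at place 30 of 34 in Ag and at place 16 in Ag+Costim (2.42 ± 0.75 and 20.1 ± 8.44 FPKM), and Sqle at places 23 and 10 (6.48 ± 2.21 and 31.4 ± 4.37 FPKM). Fasn in Ag+Costim lay between Msmo1, at 22.7 ± 2.86 FPKM, and Fdft1, at 18.8 ± 1.19 FPKM (SD, n = 5 each), and differed from both by less than its own SD.

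The proximal promoters of the genes were read for the letters that SREBP and its partner NF-Y are known to bind, since many members moved together. RefSeq promoter windows of 300 bases (250 before to 50 after a start, GRCm38.p6) were given for 26 of the 34, 34 windows in all. The box CCAAT, searched on both strands, occurred in 21 of the 34 windows (61.8%), against 37.4% of all 32851 windows and 37.8% of the windows of tested genes. It was in 13 of the 17 members with a window that were higher in Ag+Costim than in Ag and in 7 of the 9 others. The sterol element TCACNCCAC was in 1 window, that of Hmgcs1 (1.24% of all windows and 1.16% of those of tested genes). The E-box CACGTG was in 7 windows of 6 members (20.6%, against 7.15% of all windows and 9.51% of those of tested genes). A match is a description of these letters and not a measured site. For display, only CCAAT boxes lying wholly before the start were taken, and in each gene the box nearest to it. The genes shown are the 6 with the largest log2 fold change in Ag+Costim against Ag among members called higher with such a box. Acly holds a box, but none wholly before the start. The following 30-base stretches, from the strand of the gene and written 5′ to 3′, show the sterol element of Hmgcs1 (chr13:119690204-119690233) and then the CCAAT box, which reads ATTGG because it lies on the other strand, of 6 members that were higher in Ag+Costim and hold it (Fasn chr11:120824589-120824618, Idi1 chr13:8885576-8885605, Srebf2 chr15:82147122-82147151, Lss chr10:76531531-76531560, Dhcr7 chr7:143830153-143830182 and Hmgcs1 chr13:119690294-119690323), with the motif in capitals.
Hmgcs1 sterol element: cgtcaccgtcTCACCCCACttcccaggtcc
Hmgcs1 CCAAT box: tccccgcctctcATTGGctgaaagcggatc
Fasn CCAAT box: cctcggtgtccaATTGGtttcgatgtggag
Idi1 CCAAT box: catggtccaaggtgccATTGGctggcgacc
Srebf2 CCAAT box: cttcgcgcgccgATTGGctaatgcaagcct
Lss CCAAT box: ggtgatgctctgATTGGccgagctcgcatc
Dhcr7 CCAAT box: aatccacttccgATTGGtcgtctgtgacct
The bases between the box and the RefSeq start number 54 in Fasn, 9 in Idi1, 130 in Srebf2, 57 in Lss, 44 in Dhcr7 and 40 in Hmgcs1, and the sterol element of Hmgcs1 lies 128 bases before the start. In these windows the marked box is on the strand opposite to the gene in every one of the 6 genes shown. In Fasn the letters ccaATTGG also read CCAAT on the strand of the gene, overlapping the marked box.

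Transcript use was compared for the 19 members with a mean of at least 100 counts per library and a leading transcript below 95% of the gene's counts. For none of the 19 did the share of that transcript differ between Ag+Costim and Ag at an adjusted p below 0.05 in an exact permutation test, two-sided, and 4 had an unadjusted p of 0.05 or less. With 5 libraries against 5 the smallest p is 0.00794, which 3 members reached, at an adjusted p of 0.0503. These 3 passed when a mean of at least 500 counts was asked for. In Srebf2 and Scap the shares had the order of the levels, lowest in Ag and highest in Ag+Costim. Srebf2-201 held 82.2% and 81.4% of the counts of Srebf2 in Naive, 71.5%, 66.0%, 73.7%, 77.9% and 74.3% in Ag and 85.4%, 87.2%, 85.2%, 85.1% and 83.0% in Ag+Costim. The 3 groups did not overlap, and the transcript annotated as a retained intron, Srebf2-205, held means of 12.6% in Naive, 23.1% in Ag and 13.2% in Ag+Costim. Scap-201 held 90.3% ± 0.742 in Naive (SD, n = 2), 84.4% ± 2.12 in Ag and 97.3% ± 0.365 in Ag+Costim (SD, n = 5 each). Abcg1-201, of a gene whose level did not rise, held 91.2% ± 3.98 in Ag and 97.7% ± 1.104 in Ag+Costim (SD, n = 5 each), against 97.2% ± 0.816 in Naive (SD, n = 2).

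**Figure D4:**
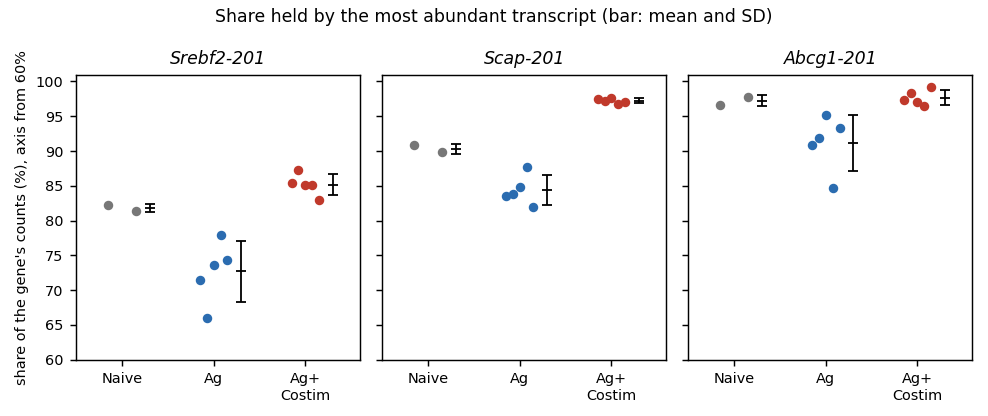
Share of a gene's counts (vertical axis, percent, from 60%) held by its most abundant transcript in each library, for Srebf2, Scap and Abcg1, with the group mean and SD as a black bar. In each gene every Ag library lies below every Ag+Costim library, and Ag means are 72.7%, 84.4% and 91.2% against 85.2%, 97.3% and 97.7%.

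The authors' values of Psi, the share of reads at a node of a transcript that include it, pool the libraries of a group, so they have no replicate error here. Of the 356 nodes listed in members, the following were singled out after their values were seen. In Sqle the start node at chr15:59315107-59316129 had a Psi of 64.5% in Ag and 91.6% in Ag+Costim, and the node before it, chr15:59315081-59315106, had 35.5% and 8.42%. In Fads1 the exon at chr19:10191440-10191500 was included at 78.8% in Ag and 97.8% in Ag+Costim. Exons of Fasn were also below full inclusion in Ag, where the gene was low, such as chr11:120813654-120814040 with 85.7% in Ag and 99.2% in Ag+Costim. In Elovl6, whose level was not called between these groups, the end node chr3:129633060-129634952 had 14.0% in Ag and 59.7% in Ag+Costim. The next end node of Elovl6, chr3:129634953-129634971, had 81.7% and 35.3%. The largest difference was in Acaca, where the end node chr11:84399560-84401645 had 59.2% in Ag and 3.35% in Ag+Costim. The node that follows it, chr11:84401646-84401651, had 40.8% and 96.7%. The ends of these nodes lie only a few bases apart, and Acaca was low in Ag, at 4.08 to 8.70 CPM.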

How the data were processed

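RNA-seq of sorted OT-I CD8+ T cells was read in 12 libraries (Ag 5, Ag+Costim 5, Naive 2), each grouped by its label. The libraries were made with a SMART-Seq and a Nextera XT kit and sequenced as single reads of 100 bases. Per the submitters' processing notes and the methods, the authors aligned reads to mm10 with HISAT2 2.1.0 and quantified them with StringTie 2.1.0. The deposited counts per gene and per transcript are derived from coverage and not normalized, and whether strand was used is not given in the sources used here. The deposited FPKM values, 1 per transcript, also come from StringTie and were summed here per gene name. The Psi fractions come from Whippet, run by the authors, with 1 value per group, and how the replicates were combined is not stated. Columns with the Psi difference and its probability hold the authors' own comparison and were not used, nor were a sheet of the sequencing core and a sheet of sample names.

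Of 81881 gene entries, 55536 were matched to GENCODE vM21, and 26345 unnamed loci with 0.0508% to 0.121% of a library's counts were left out. No 2 libraries were identical, and replicates had Spearman's rho of 0.966 to 0.984. All 12 libraries entered a single edgeR 4.0.16 fit (R 4.3.3) with a term for each group, TMM scaling and filterByExpr, which kept 18817 genes. The quasi-likelihood test was robust and two-sided, and p was adjusted by Benjamini and Hochberg's method over all genes. CPM values use TMM library sizes. The test was checked on simulated data for Ag+Costim against Ag: of 18817 genes, 200 were given a true log2 change of 1, and it recovered 85 of 92 above a mean log2 CPM of 4 and 10 of 108 below, with 6 false calls. A difference of that size in a low gene can therefore be missed. Transcript shares were tested with exact permutation tests in scipy 1.17.1. Alternatives were upper-quartile scaling, DESeq2 1.42.0, other filters, each comparison fitted alone, limma 3.58.1 on log2(FPKM + 1), a loess correction for transcript length (span 0.5), a block for the replicate number, and each library left out in turn.

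The members and the gene lists were chosen with earlier results of these data known. Genes named outside the 34 are, per list, up to 3 called genes with the largest log2 fold change in Ag+Costim against Ag, of which 1 is not reported here. Annotated spans of 18 members overlap another gene, 10 of them on the same strand.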

Additional observations from a re-analysis of the deposited data

Results flagged for a closer look

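A library of 5 was listed when its gap to the nearest other library of its group took more than 0.71 of the group's range (Dixon's limit). Of 68 groups of members, 6 had such a library, and chance alone gives about 5% of groups. In Ag+Costim, Fdft1 was at 63.66 CPM in library 3 against 54.47 to 55.91 in the others, Srebf2 was at 144.8 in library 1 against 175.7 to 187.7, and Elovl6 was at 16.29 in library 4 against 10.24 to 11.06. In Ag, Msmo1 was at 63.16 CPM in library 5 against 42.08 to 47.76 in the others, and Acaca was at 8.702 in library 4, the shallowest, against 4.081 to 5.237. Fads2 was at 0.08775 CPM in Ag 1, from 4 counts, and at 0 in the other Ag libraries. The 6 values fall in 6 different libraries. Their causes were not tested.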

How the results depend on the processing

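With costimulation, 21 to 23 members were called higher than in Ag under every alternative and 23 when any library was left out. The number called lower, 3, was 5 under upper-quartile scaling, under the filter on a mean log2 CPM above 1, under the length correction and under the replicate block with length correction, and 2 to 4 with a library left out. The number higher in Ag than in Naive, 10, was 6 on FPKM and 6 to 10 with a library left out (6 without Naive 1), and the number lower was 11 to 14. Against Naive, Ag+Costim had 18 to 23 higher and 5 to 6 lower with a library left out. The cause was not tested. The median of the members in Ag against Naive, -0.0358, turned to 0.0104 under upper-quartile scaling, 0.0983 with the length correction, and ranged from -0.1194 to 0.109 with a library left out. Upper-quartile scaling moved the median of all genes in Ag+Costim against Ag from -0.05 to -0.24, and against Naive from -0.02 to -0.18, and split the called genes 4056 higher and 6338 lower in place of 5006 and 4979. Transcript shares differed in 3 members at a minimum of 500 counts, where fewer members were tested. With a library left out the count was 0, which says nothing about stability, since the smallest p is then larger. Deviations of same-numbered Ag and Ag+Costim libraries correlated only weakly, at 0.0951, 0.0657, 0.0450, 0.0159 and 0.0194. Of the 5 numbers, 3 matched best with their own number, and these values do not settle whether the numbers pair the libraries. With the replicate block the members called were 23 (higher) and 3 (lower) for Ag+Costim against Ag, and 8 and 11 for Ag against Naive.

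Signs turned mostly in members near 0. Of called differences, Sc5d in Ag+Costim against Ag turned, to -0.0638 with the length correction and -0.0415 with block and length correction, as did Dhcr7 in Ag against Naive on FPKM (-0.0674). In Ag+Costim against Ag, upper-quartile scaling turned Pmvk to -0.17, Nsdhl to -0.13, Scd1 to -0.0958 and Abcg1 to -0.0628. The length correction turned Msmo1 to 0.0635, Scd1 to -0.30 and Abcg1 to -0.28, and with the block to 0.0706, -0.38 and -0.31. On FPKM, Pmvk gave -0.0158, Elovl6 0.059 and Abcg1 -0.16, and the stricter filter gave -0.0204 for Pmvk. In Ag against Naive, Sqle gave -0.13 and Acat2 -0.16 on FPKM, Sqle -0.0199 with the stricter filter and -0.20 with the replicate block, Lss 0.12 and Elovl5 0.0165 with the length correction, and Sqle -0.0936, Lss 0.0502 and Acat2 -0.023 with block and length correction. In Ag+Costim against Naive, FPKM gave -0.037 for Mvk, -0.16 for Srebf1 and -0.28 for Acaca, upper-quartile scaling -0.029, -0.0654 and -0.0496, the stricter filter -0.0109 for Srebf1 and no filter 0.0016 for Mvd. With a library left out, Ag+Costim against Ag ranged from -0.0159 to 0.0913 in Pmvk, -0.0719 to 0.0836 in Msmo1, -0.0346 to 0.1254 in Nsdhl and -0.0521 to 0.303 in Scd1. Ag against Naive ranged from -0.16 to 0.2156 in Sqle and -0.2208 to 0.035 in Elovl5, and Ag+Costim against Naive from -0.0772 to 0.28 in Acaca and -0.1284 to 0.1056 in Mvd. Fads2 in Ag against Naive has no value without Ag 1, since no counts remain.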
